A study of Mus musculus with 6 samples.

Results

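Genes of the goblet cell, the mucus-secreting cell of the intestinal epithelium, were followed in RNA sequencing of mouse colon. They were taken as a fixed list of 10 gene symbols, covering secreted mucus components (Muc2, Fcgbp, Clca1, Zg16, Tff3 and Spink4), the mucin-folding protein Agr2, the transcription factors Spdef and Foxa3, and the granule-trafficking protein Sytl2. All 10 were found among the 24517 genes of the count tables, and all 10 passed the filter on low counts that left 16347 genes for testing.

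The study compared colon from Nsd2ΔIE mice, in which floxed Nsd2 had been deleted with Villin-Cre, a recombinase driven by an epithelial promoter, with colon from Nsd2fl/fl mice, which carry the floxed alleles without that deletion. NSD2 dimethylates histone H3 at lysine 36. Both groups were on a C57BL/6J background and were fed HFCD, a diet rich in fat and cholesterol, for 16 weeks according to the labels (the methods of the study give a longer period), so no library came from an animal on control diet. There were 3 libraries per group, named by replicate number. The labels gave no age and no sex.

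The mucus layer of the colon is built from MUC2, a very large gel-forming mucin that is folded with the help of AGR2, packed into granules and released at the cell surface. FCGBP, CLCA1 and ZG16 are secreted with it. CLCA1 is a protease that acts on MUC2, ZG16 is a lectin that binds Gram-positive bacteria, TFF3 is a trefoil peptide of mucosal repair, and SPINK4 is a Kazal-type peptide of goblet granules. SPDEF and FOXA3 drive goblet cell maturation, and SYTL2 binds RAB27 and tethers secretory granules to the plasma membrane.

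Counts per library ranged from 38041832 to 38604680. The targeted gene, Nsd2, was lower in each Nsd2ΔIE library, with 1840, 2091 and 2455 counts in the Nsd2fl/fl libraries against 972, 914 and 1139 in the Nsd2ΔIE ones. Its log2 fold change was -1.23 (SE 0.158, unadjusted p of 0.000113, adjusted p of 0.264). Xist, the transcript of the inactive X chromosome, had at most 4 counts in any Nsd2fl/fl library and at least 21217 in every Nsd2ΔIE library, and the Y-linked Kdm5d had at least 1665 counts in the former and 0 in the latter. The Nsd2fl/fl libraries thus carried a male pattern and the Nsd2ΔIE libraries a female pattern, although the methods describe male littermates, and in every comparison below the genotype cannot be told apart from the sex pattern. The libraries also differed in Hoxb13, a homeobox gene of the distal colon. Levels are given as CPM, counts scaled to a common library size with the TMM factors of edgeR. Hoxb13 had 365, 340 and 310 CPM in Nsd2fl/fl replicates 1 and 3 and Nsd2ΔIE replicate 1. It had 0.706, 4.97 and 26.2 CPM in Nsd2fl/fl replicate 2 and Nsd2ΔIE replicates 2 and 3. Each genotype therefore held libraries of both kinds, in unequal number, and the labels do not say which part of the colon was taken.

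On genome build GRCm38 (mm10), 5 of the 10 genes lie on chromosome 7, although far apart. The gene bodies in the RefSeq table of GRCm38.p6 were chr7:141690340-141754691 for Muc2, chr7:28071236-28120864 for Fcgbp, chr7:127050156-127052675 for Zg16, chr7:90302211-90410719 for Sytl2 and chr7:19013283-19023539 for Foxa3. Clca1 lies at chr3:145004537-145032776, Spink4 at chr4:40920056-40931395, Agr2 at chr12:35992925-36004081, Spdef at chr17:27714446-27731003 and Tff3 at chr17:31125306-31129611. Clca1 of these tables is the gene also known as gob-5. None of the 10 shares exon bases with another gene on either strand in the GENCODE annotation (0 of 10).

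Promoter sequence was available for 5 of the members, Muc2, Fcgbp, Agr2, Spdef and Foxa3. Those of Muc2 and Fcgbp are shown because these 2 genes turned out to vary in opposite directions between libraries, and that of Foxa3 because its level was among the steadiest of the list. Each run is the 250 bases before the RefSeq transcript start on GRCm38.p6, written 5′ to 3′ on the strand of the gene, at chr7:141690090-141690339 (plus strand) for Muc2, chr7:28070986-28071235 (plus strand) for Fcgbp and chr7:19023540-19023789 (minus strand) for Foxa3. The bases just after that start were found in a GENCODE transcript of the same gene for Muc2 and Spdef. They were not found for Fcgbp, Foxa3 and Agr2, so motif distances for Foxa3 and Agr2 rest on the RefSeq start alone. Capitals mark matches to any of 5 motifs.
Muc2: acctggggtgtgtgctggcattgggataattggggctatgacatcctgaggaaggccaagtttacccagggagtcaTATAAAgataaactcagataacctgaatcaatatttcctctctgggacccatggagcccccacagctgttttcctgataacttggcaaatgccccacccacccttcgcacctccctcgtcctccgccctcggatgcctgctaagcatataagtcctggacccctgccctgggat
Fcgbp: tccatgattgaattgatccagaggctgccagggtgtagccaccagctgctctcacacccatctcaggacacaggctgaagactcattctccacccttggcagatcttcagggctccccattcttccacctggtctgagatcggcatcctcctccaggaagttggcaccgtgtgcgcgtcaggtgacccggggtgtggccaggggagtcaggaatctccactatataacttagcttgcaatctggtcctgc
Foxa3: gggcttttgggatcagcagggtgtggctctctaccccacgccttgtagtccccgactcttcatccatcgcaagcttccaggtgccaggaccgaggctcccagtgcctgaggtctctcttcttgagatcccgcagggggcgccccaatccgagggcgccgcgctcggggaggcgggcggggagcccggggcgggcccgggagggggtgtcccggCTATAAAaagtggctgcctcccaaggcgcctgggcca
The motifs, searched on both strands, were TATAAA (bound by the general factor TBP), TGTTTAC (bound by FOXA proteins), TTTATNG (bound by CDX and posterior HOX proteins), CCGGAT (an ETS core favoured by SPDEF) and GATAAG (bound by GATA factors). Muc2 held 1 match, TATAAA, starting 174 bases before the transcript start. Foxa3 held TATAAA 36 bases before its start, overlapped by a TTTATNG match, and Agr2 held 1 match to TTTATNG 48 bases before its start. Fcgbp and Spdef held 0 matches. Among 32851 promoter windows of the same length, TATAAA was present in 12.4%, TGTTTAC in 3.17%, TTTATNG in 9.81%, CCGGAT in 4.94% and GATAAG in 6.55%. A match describes letters only, and the absence of one says nothing of the factor.

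To compare abundance between members, the deposited FPKM values (reads scaled to library size and to gene length) were used, since the gene lengths they imply ran from 393 bases for Spink4 to 13914 for Muc2. Transcripts of the secreted proteins were among the most abundant of the tissue. By FPKM, Zg16 ranked between 4th and 13th of all genes in each library and Agr2 between 6th and 18th. Clca1 ranked 4th in Nsd2fl/fl replicate 3 but 75th in Nsd2ΔIE replicate 2. Muc2 ranked 47th to 191st on this scale, which divides by its long transcript.

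In Nsd2fl/fl the order by mean FPKM was Clca1 (4514 ± 3226), Zg16 (4249 ± 1869), Agr2 (2665 ± 910), Spink4 (1598 ± 1195), Tff3 (1417 ± 484), Fcgbp (882 ± 491), Muc2 (630 ± 394), Foxa3 (29.1 ± 3.57), Spdef (28.0 ± 7.7) and Sytl2 (13.3 ± 0.175), each ± SD over 3 libraries. Neighbours in this order overlapped in range except Muc2 with Foxa3 and Spdef with Sytl2. In Nsd2ΔIE the order was Zg16 (5176 ± 1099), Agr2 (3014 ± 848), Clca1 (2021 ± 1566), Tff3 (1498 ± 623), Spink4 (966 ± 257), Muc2 (638 ± 259), Fcgbp (492 ± 279), Spdef (31.8 ± 7.75), Foxa3 (27.1 ± 3.55) and Sytl2 (10.01 ± 0.905). There the non-overlapping neighbours were Zg16 with Agr2, Fcgbp with Spdef, and Foxa3 with Sytl2. The secreted products thus stood far above the 2 transcription factors and Sytl2 in every library, while the order among the secreted products was not fixed.

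The genotype comparison asked whether loss of epithelial NSD2 changed these genes. Of the 10 members, 7 had a fitted fall in Nsd2ΔIE and 3 a fitted rise. With edgeR's quasi-likelihood test, 0 passed an adjusted p under 0.05, where 0.0306% of all genes tested did. Those were 5 genes, Xist and the Y-linked Ddx3y, Eif2s3y, Kdm5d and Uty, which follow the sex pattern. An unadjusted p under 0.05 was found for 1 member, where 11.1% of all genes had one. DESeq2 called 1 member at an adjusted p under 0.05 (Sytl2), against 2.78% of all genes. At the threshold the study used, an unadjusted p below 0.05 and an absolute log2 fold change above 0.32, 1 of the 10 was lower and 0 were higher, against 2.2% and 8.04% of all genes. The share of all genes called lower depended on the scaling and was 0.257% per epithelial marker count, 0.838% for library totals alone and 1.21% when upper-quartile factors were used. For the members the median log2 fold change (Nsd2ΔIE over Nsd2fl/fl, as for every fold change here) was -0.18, beside -0.04 for all genes tested. In whole tissue, fewer goblet cells and less RNA per goblet cell cannot be told apart.

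**Figure D1:**
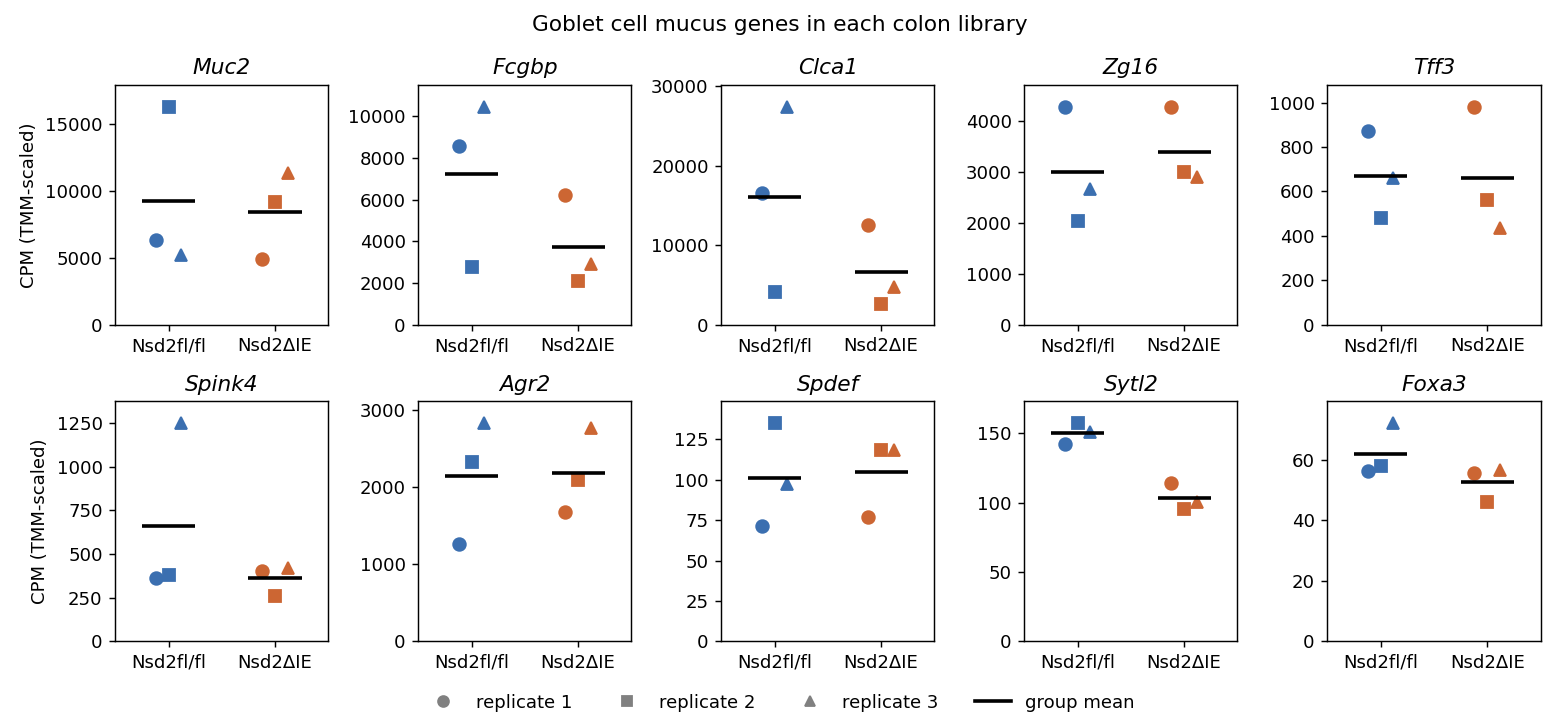
TMM-scaled CPM (vertical axes from 0) of each of the 10 genes in the 3 Nsd2fl/fl and 3 Nsd2ΔIE libraries, with the replicate number as the symbol and the group mean as a bar. Sytl2 is the only panel in which the groups do not overlap, and Clca1, Fcgbp and Muc2 span wide ranges within each group.

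Sytl2 was the member that separated the genotypes. It had 142, 157 and 151 CPM in Nsd2fl/fl replicates 1 to 3 and 114, 95.1 and 100.4 CPM in Nsd2ΔIE replicates 1 to 3. Every Nsd2ΔIE library lay below every Nsd2fl/fl library, which held for 1 of the 10 members and 7.28% of all genes tested, and the reverse held for 0 members and 11.4% of all genes. The ranges within each group were narrow. The mean was 150.2 ± 7.59 CPM against 103.1 ± 9.65 CPM (SD, n = 3 in each). The fitted log2 fold change, -0.54 with an SE of 0.116, had an unadjusted p of 0.00228 in edgeR's quasi-likelihood test, the source of every p-value here unless another is named, and an adjusted one of 0.299. It was lower to a similar degree in the fits that each left out 1 library, from -0.61 to -0.49, and with the distal position genes as a covariate, -0.54. Over 19 alternatives its adjusted p ranged from 0.00536, with DESeq2, to 0.993.

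The size of the Sytl2 difference depended on the reference. Levels of other tissue layers differed beside it, and beside every fold change given here. All 12 general epithelial markers (Epcam, Cdh1, Krt8 and others) had fitted falls, 2 of them past the study's threshold, where 2.2% of all genes tested were lower. Their summed level was 14439 to 22520 CPM in Nsd2fl/fl and 13337 to 15465 CPM in Nsd2ΔIE. The 10 smooth muscle markers all had fitted rises, 9 past the threshold, where 8.04% of all genes tested were higher. They summed to 1680 to 4426 CPM in Nsd2fl/fl and 5524 to 11883 CPM in Nsd2ΔIE. When the epithelial marker counts served as the library size, Sytl2 had 9.84, 6.98 and 9.05 counts per 1000 marker counts in Nsd2fl/fl and 7.36, 6.58 and 7.53 in Nsd2ΔIE. The groups then overlapped, and the log2 fold change was -0.27 with an unadjusted p of 0.257. That scaling also moved the median of all genes from -0.04 to 0.23, so relative to the median gene Sytl2 stood at -0.50 under both scalings. A change of library size scales all genes of a library together, so the like relative values are no separate evidence on Sytl2. The fitted shift was not the same for every gene. Muc2 went from -0.13 to 0.29 and Clca1 from -1.27 to -1.14.

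The largest fitted falls were those of Clca1 and Fcgbp, but both genes spread widely within each genotype. Clca1 had 16528, 4105 and 27449 CPM in Nsd2fl/fl replicates 1 to 3 and 12543, 2593 and 4742 CPM in Nsd2ΔIE replicates 1 to 3. Nsd2fl/fl replicate 2 lay with the low libraries and Nsd2ΔIE replicate 1 with the high ones. The fitted log2 fold change of -1.27 had an SE of 0.829 (unadjusted p of 0.174, adjusted p of 0.628).

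Fcgbp, a large secreted protein of repeated von Willebrand domains that is bound to the mucin gel, ranked the 6 libraries in the same order. It had 8551, 2753 and 10458 CPM in the Nsd2fl/fl libraries, by replicate number, against 6214, 2106 and 2917 CPM in the Nsd2ΔIE libraries. Its fitted log2 fold change of -0.95 had an SE of 0.589 (unadjusted p of 0.153, adjusted p of 0.609). For both genes the 3 highest libraries were Nsd2fl/fl replicates 3 and 1 and Nsd2ΔIE replicate 1, the 3 libraries with high Hoxb13.

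With the mean of 8 distal position genes (Hoxb13, Hoxa13, Hoxd13 and others) as a covariate, both fitted falls were smaller and had lower p-values. Clca1 had a log2 fold change of -0.76 (unadjusted p of 0.0237, adjusted p of 0.218) and Fcgbp of -0.57 (0.0173 and 0.193). Together with Sytl2 this made 3 members past the study's threshold in that fit, all lower, where 3.87% of all genes were lower and 15.4% passed in either direction, up from 10.2% without the covariate. None of the 3 had an adjusted p under 0.05. Among the 3 libraries with high Hoxb13, the log2 difference between Nsd2ΔIE (1 library) and Nsd2fl/fl (2 libraries) was -0.76 for Clca1 and -0.61 for Fcgbp. Among the 3 with low Hoxb13 (2 and 1 libraries) it was -0.23 and -0.15. Hoxb13 itself was not alike in that low set, at 4.97 and 26.2 CPM in Nsd2ΔIE and 0.706 CPM in Nsd2fl/fl. No test was run within either set of 3 libraries. Single libraries decided whether Fcgbp passed. Without Nsd2fl/fl replicate 2 the unadjusted p of Fcgbp was 0.0241, with a log2 fold change of -1.34, and without Nsd2ΔIE replicate 1 it was 0.0423, with -1.53. For Clca1 the log2 fold change ranged from -2.12 without Nsd2ΔIE replicate 1 to -0.65 without Nsd2fl/fl replicate 3.

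Muc2, which encodes the structural mucin itself, went the other way across libraries. It had 6337, 16253 and 5173 CPM in the Nsd2fl/fl libraries, by replicate number, against 4899, 9129 and 11292 CPM in the Nsd2ΔIE libraries. The 3 libraries with low Hoxb13 were the 3 highest for Muc2, in both genotypes. The fitted value on the log2 scale was -0.13 (SE 0.507, adjusted p = 0.937), and it was 0.55 without Nsd2fl/fl replicate 2. Relative to the median of all genes it was -0.09, and it stayed below 0 with library totals alone (-0.07) but not per epithelial marker count (0.06). A genotype difference in Muc2 was not detectable against a spread of 3.14-fold within Nsd2fl/fl and 2.31-fold within Nsd2ΔIE.

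**Figure D2:**
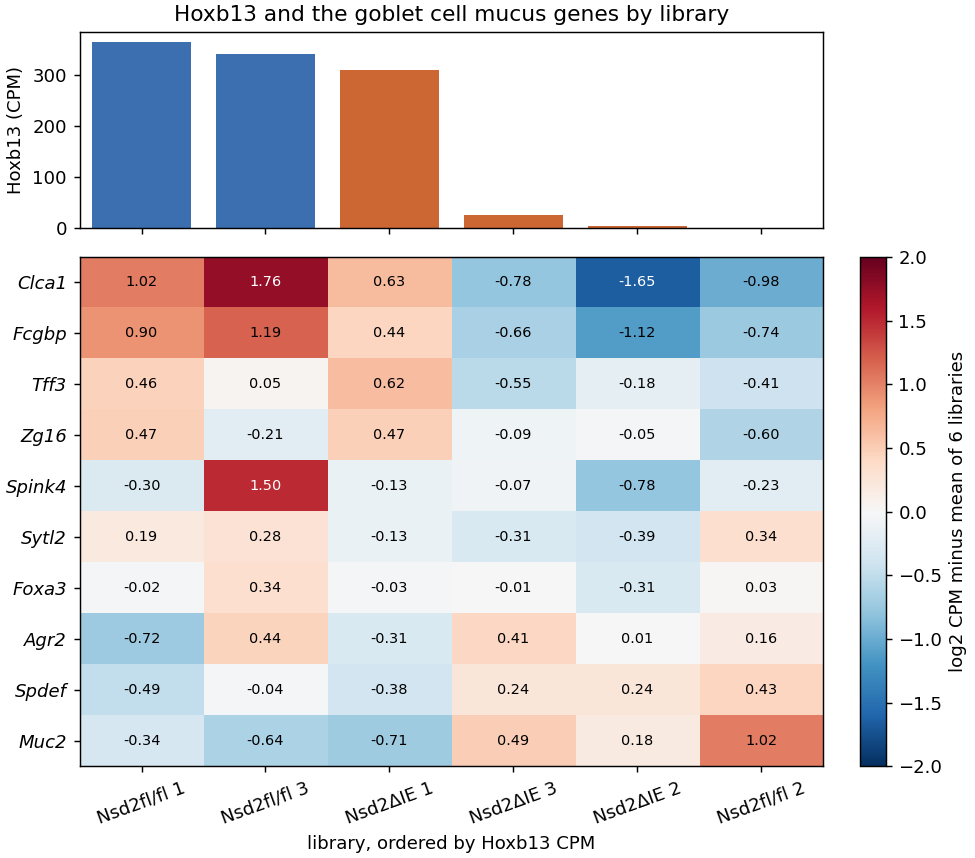
Upper panel, Hoxb13 in CPM by library (blue, Nsd2fl/fl; orange, Nsd2ΔIE), ordered from high to low. Lower panel, log2 CPM of each gene minus its mean over the 6 libraries, with Clca1 and Fcgbp above 0 in the first 3 libraries and below 0 in the others, and Muc2 the reverse.

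Because Clca1 and Muc2 are products of the same cells, their ratio within a library was also computed, on the FPKM scale. Clca1 to Muc2 was 10.6, 1.03 and 21.6 in the Nsd2fl/fl libraries, by replicate number, against 10.4, 1.16 and 1.71 in the Nsd2ΔIE libraries. The ratio thus differed by 21.0-fold between libraries of the same control genotype, and nearly the same value was seen in replicate 1 of both genotypes. Fcgbp to Muc2 ran from 0.297 to 3.55, with the same libraries lowest and highest. Clca1 to Fcgbp was far steadier, between 2.86 and 6.1.

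**Figure D3:**
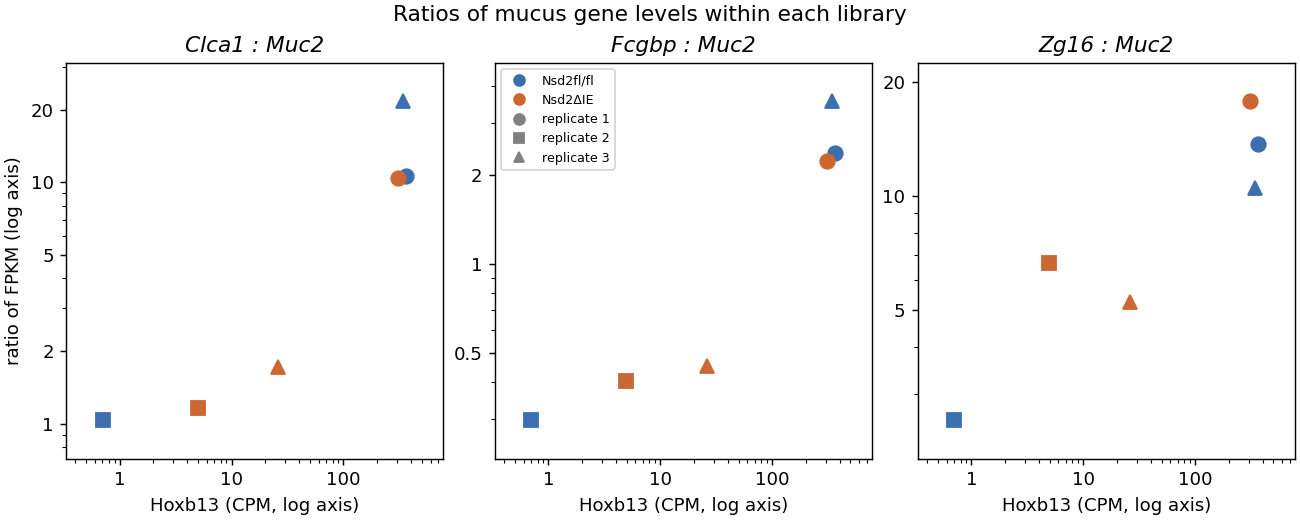
Ratio of FPKM values within each library (vertical, log axis) against Hoxb13 in CPM (horizontal, log axis) for Clca1, Fcgbp and Zg16, each over Muc2. The 3 libraries with Hoxb13 of at least 310 CPM have higher ratios than the other 3 in all 3 panels, with both genotypes in each set.

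Among the smaller secreted products, Zg16 and Tff3 had like profiles over the libraries. Zg16 had 4273, 2032 and 2659 CPM in the Nsd2fl/fl libraries, by replicate number, against 4272, 2985 and 2897 CPM in the Nsd2ΔIE libraries. Its log2 fold change was 0.18 (SE 0.311, adjusted p = 0.851) and was below 0 without Nsd2fl/fl replicate 2 (-0.039) or without Nsd2ΔIE replicate 1 (-0.022). In both genotypes replicate 1 was the highest, at almost the same value.

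Tff3 had 873, 480.4 and 661 CPM in the Nsd2fl/fl libraries, by replicate number, against 981, 562 and 436 CPM in the Nsd2ΔIE libraries. Between genotypes the log2 fold change was -0.03 (SE 0.349, adjusted p = 0.985), and relative to the median of all genes it was 0.016, or -0.075 per epithelial marker count. Replicate 1 was again the highest of each genotype. Like Clca1 and Fcgbp, Tff3 was higher in each of the 3 libraries with high Hoxb13 than in any of the others, with 661 CPM in Nsd2fl/fl replicate 3 and 562 CPM in Nsd2ΔIE replicate 2 the nearest values.

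Spink4 was set apart by a single library. It had 361, 377 and 1250.04 CPM in the Nsd2fl/fl libraries, by replicate number, against 405, 258 and 423 CPM in the Nsd2ΔIE libraries. Nsd2fl/fl replicate 3 held 3.47 times the lowest Nsd2fl/fl value, while the other 5 libraries lay between 258 and 423 CPM. The log2 fold change of -0.87 (SE 0.53, adjusted p = 0.605) became -0.023 without that library. The same library had the highest summed level of 16 endoplasmic reticulum folding and quality-control genes (Hspa5, Pdia4, Sdf2l1 and others), 9536 CPM against 4477 to 6071 CPM in the other 5, and whether that level had a part in the Spink4 value was not tested.

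Agr2, the disulfide isomerase of the goblet cell endoplasmic reticulum, did not separate the genotypes. It had 1263, 2326 and 2827 CPM in the Nsd2fl/fl libraries, by replicate number, against 1682, 2091 and 2772 CPM in the Nsd2ΔIE libraries. In both groups replicate 1 was the lowest and replicate 3 the highest. On the log2 scale the fold change was 0.03 (SE 0.33, adjusted p = 0.981), and it was -0.24 without Nsd2fl/fl replicate 1.

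Across all 6 libraries the transcription factors varied less than the genes for secreted products, with 1.89-fold for Spdef against at least 2.10-fold. This did not hold within each genotype. Spdef spanned 1.89-fold and Tff3 1.82-fold within Nsd2fl/fl, and Spdef 1.54-fold and Zg16 1.47-fold within Nsd2ΔIE. Spdef, an ETS factor, had 71.6, 135 and 97.7 CPM in the Nsd2fl/fl libraries, by replicate number, against 76.8, 118.3 and 118.7 CPM in the Nsd2ΔIE libraries. As for Muc2, its 3 highest libraries were those with low Hoxb13. Its log2 fold change of 0.04 (SE 0.27, adjusted p = 0.962) was below 0 with the distal position covariate (-0.068) and without Nsd2fl/fl replicate 1 (-0.16).

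Foxa3, a forkhead factor, had 56.2, 58.0 and 72.2 CPM in the Nsd2fl/fl libraries, by replicate number, against 55.8, 46.0 and 56.7 CPM in the Nsd2ΔIE libraries. The groups overlapped only by Nsd2ΔIE replicate 3 standing slightly above Nsd2fl/fl replicate 1. The fitted log2 fold change of -0.23 had an SE of 0.143 (unadjusted p of 0.144, adjusted p of 0.599). Per epithelial marker count it was 0.033. Relative to the median of all genes it was -0.19 in the first fit and -0.20 under that scaling, which scales all genes of a library together. Across all 6 libraries Foxa3 varied by 1.57-fold and Sytl2 by 1.65-fold, whereas Clca1 varied by 10.6-fold and Fcgbp by 4.96-fold.

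**Figure D4:**
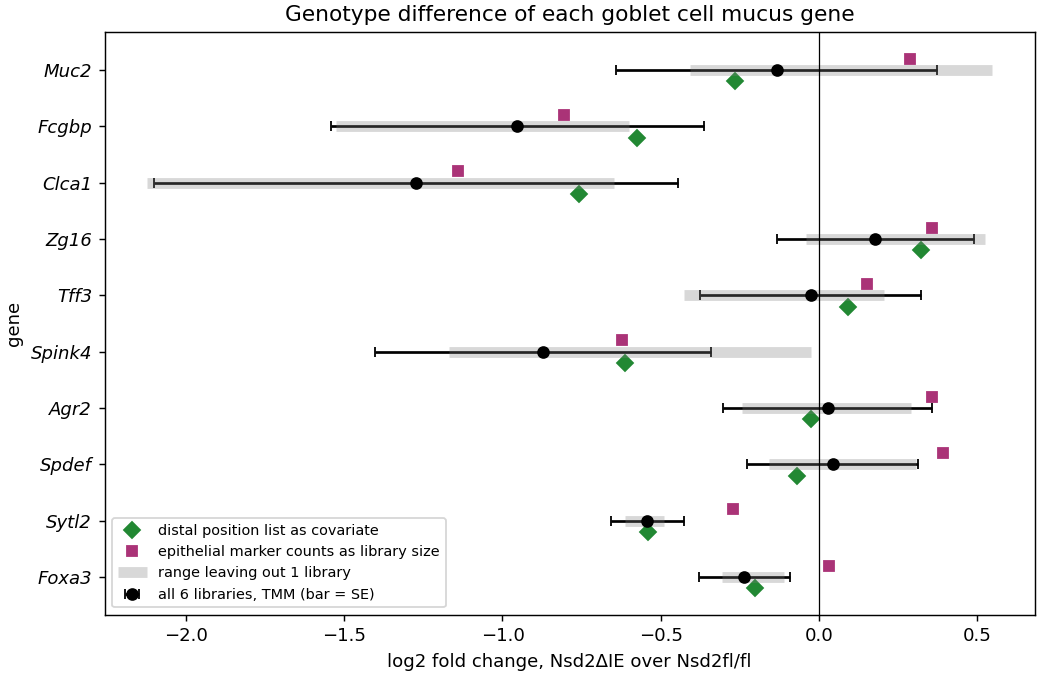
Log2 fold change of Nsd2ΔIE over Nsd2fl/fl for each gene (black point, bar = SE), with the range over the fits that each left out 1 library (grey), the fit with the distal position genes as a covariate (green) and the fit per epithelial marker count (purple). Sytl2 has the smallest error and stays below 0 in all of them, and Clca1 the largest error.

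How alike the members were across libraries was measured as the root mean square difference between their log2 CPM profiles, each centred on its own mean over the 6 libraries. The closest pairs were Sytl2 with Foxa3 (0.205), Zg16 with Tff3 (0.244), Agr2 with Spdef (0.273) and Fcgbp with Clca1 (0.348). The farthest pair was Muc2 with Clca1 (1.75). In all, 3 members (Clca1, Fcgbp and Tff3) were higher in each high-Hoxb13 library than in any low one, and 2 (Muc2 and Spdef) were lower in each. Of all genes tested, 12.8% were higher and 9.55% were lower in this way. Within the sets of high and low Hoxb13, the difference between genotypes had the same sign for 9 of the 10 members and for 65.1% of all genes tested. Agr2 was the exception. Hoxb13 itself still differed between the genotypes within the low set.

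Other genes with like profiles were then sought among the 10699 genes with an average log2 CPM of at least 3. Closest to Muc2 were Nupr1 (root mean square difference 0.167), Gramd3 (0.198), Daglb (0.209), Rph3al (0.214) and Muc3a (0.225). Rph3al is a RAB effector of regulated exocytosis, and Muc3a belongs to the membrane-bound mucins. Closest to the mean profile of the 10 members were Yars (0.0582), Nat10 (0.0592), Nars2 (0.0655), Riox2 (0.071) and Qtrt1 (0.0724). Yars and Nars2 encode tRNA synthetases, Nat10 an RNA acetyltransferase and Qtrt1 a tRNA-modifying enzyme. That mean profile was highest in Nsd2fl/fl replicate 3 (0.47 above its own mean on the log2 scale) and lowest in Nsd2ΔIE replicate 2 (-0.40). None of these 10 genes had an unadjusted p under 0.05 between genotypes, where 11.1% of all genes tested did. They were picked for likeness to profiles that overlapped between genotypes, so this count follows largely from the choice.

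Lists of further goblet cell genes were examined beside the members. Of 16 other secreted goblet and mucus products, 12 were tested, with a median log2 fold change of -1.12. Of the 12, 2 were lower and 1 higher past the study's threshold, where 2.2% and 8.04% of all genes tested were, and 9 did not pass it. Retnlb, which encodes the antibacterial resistin-like peptide RELMβ, had 355, 949 and 2341 CPM in the Nsd2fl/fl libraries, by replicate number, against 185, 138 and 478 CPM in the Nsd2ΔIE libraries. The groups overlapped through Nsd2fl/fl replicate 1, and the fitted log2 fold change of -2.19 had an SE of 0.81 (unadjusted p of 0.036, adjusted p of 0.416). Clps, which encodes colipase, a lipase cofactor, was also lower past the study's threshold, with a log2 fold change of -1.43 (SE 0.557, unadjusted p of 0.0424, adjusted p of 0.429). Its highest library was Nsd2fl/fl replicate 3 with 74.6 CPM. The groups did not overlap, with 18.4 CPM the lowest Nsd2fl/fl and 17.0 CPM the highest Nsd2ΔIE value. Of the 12 genes 2 were lower without overlap, beside 7.28% of all genes tested. The trefoil gene Tff2 had only 0, 13 and 1 counts in Nsd2fl/fl and 22, 58 and 86 counts in Nsd2ΔIE (unadjusted p of 0.0226, adjusted p of 0.367), so that its comparison rests on few reads. Muc5ac, the gel-forming mucin of the stomach, had at most 1 count in a library and was not tested.

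The same list held genes that followed Hoxb13 over far wider ranges than the members, chosen here after their values were seen. Tgm3, a transglutaminase that cross-links mucus, had 1129, 592 and 1416 CPM in Nsd2fl/fl replicates 1 and 3 and Nsd2ΔIE replicate 1. It had 2.65, 11.2 and 51.2 CPM in Nsd2fl/fl replicate 2 and Nsd2ΔIE replicates 2 and 3. Mptx1, a mucosal pentraxin, had 14858, 28148 and 14880 CPM in the same first 3 libraries and 85.5, 110.01 and 2581 CPM in the others. The adjusted p between genotypes was 0.977 for Tgm3 and 0.843 for Mptx1. Reg4, a marker of deep crypt secretory cells, reached 3649 CPM in Nsd2fl/fl replicate 3, with 501 and 592 CPM in the other 2 high-Hoxb13 libraries and at most 38.5 CPM in the rest. Dmbt1, also on the list, went the other way. It had 2977, 1637 and 3394 CPM in Nsd2fl/fl replicates 1 and 3 and Nsd2ΔIE replicate 1. In Nsd2fl/fl replicate 2 and Nsd2ΔIE replicates 2 and 3 it had 6933, 6128 and 5169 CPM.

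Of 16 goblet fate and maturation factors, all 16 were tested, with a median log2 fold change of -0.14. There were 2 lower past the threshold and 0 higher, where 2.2% and 8.04% of all genes tested were. Elf3, an epithelial ETS factor, had 521, 577 and 455 CPM in the Nsd2fl/fl libraries, by replicate number, against 331, 332 and 364 CPM in the Nsd2ΔIE libraries, with no overlap. The fitted log2 fold change of -0.60 had an SE of 0.14 (unadjusted p of 0.00378, adjusted p of 0.299). Elf3 also stands on the list of general epithelial markers. Klf4, a factor of goblet and surface cell differentiation, had 472 ± 29.8 CPM against 356 ± 59.4 CPM (SD, n = 3 in each) and a log2 fold change of -0.41 (SE 0.159, unadjusted p of 0.0374, adjusted p of 0.421). Its groups did not overlap either. Of the 16 factors 2 were lower without overlap, beside 7.28% of all genes tested. Atoh1, which commits cells to the secretory lineage, had 94.1 ± 9.22 and 91.9 ± 7.09 CPM and a log2 fold change of -0.03 (SE 0.117).

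Of 16 genes for mucin folding, assembly and granules, 15 were tested, with a median log2 fold change of -0.14. Of the 15, 1 was lower past the threshold, where 2.2% of all genes tested were. This was Capn8, a calpain of mucous cells, with 28.3 ± 7.71 CPM against 17.6 ± 5.64 CPM (SD, n = 3 in each) and ranges that overlapped. Its log2 fold change was -0.68 (SE 0.278, unadjusted p of 0.0443, adjusted p of 0.436). None of the 16 genes of granule exocytosis, all tested, passed the threshold, where 10.2% of all genes did, and their median log2 fold change was -0.18. The largest fitted rise in that list was 0.41 (SE 0.185) for Stx2, a syntaxin, and the largest fitted fall was -0.36 (SE 0.299) for Myo5b, a motor of apical vesicle transport. Rab27a and Rab27b, the small GTPases that SYTL2 binds, had log2 fold changes of -0.27 and -0.31 with unadjusted p-values of 0.24 and 0.0771.

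**Figure D5:**
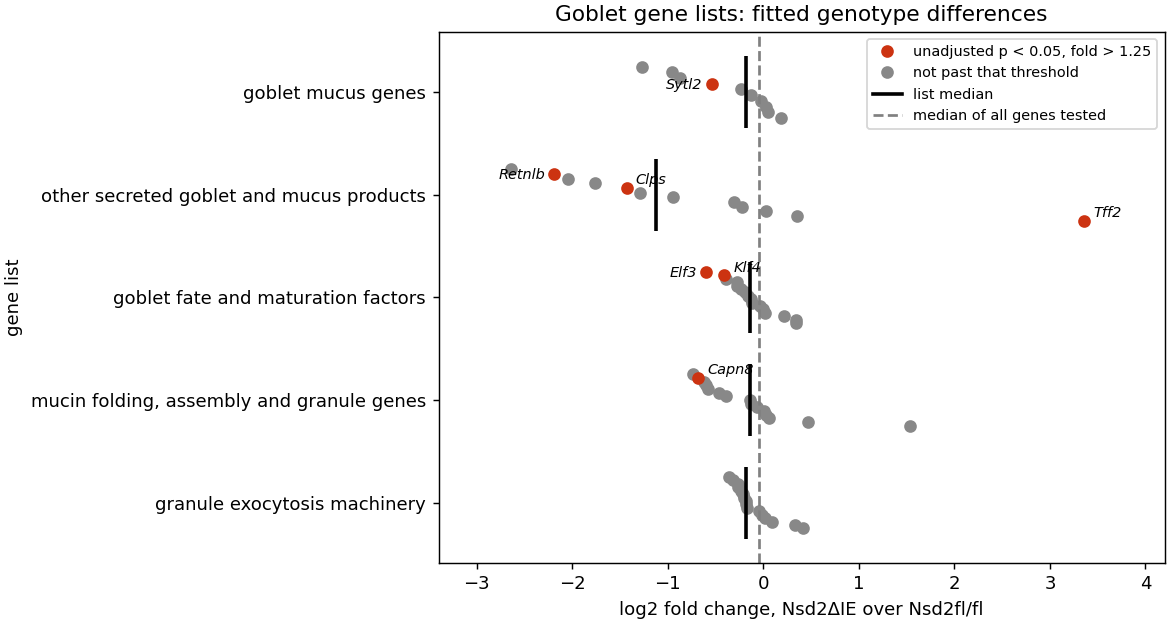
Log2 fold change of Nsd2ΔIE over Nsd2fl/fl for every tested gene of the 5 goblet gene lists, with those past the study's threshold in red, the list median as a black bar and the median of all genes as a dashed line. The 5 list medians lie between -1.12 and -0.14. Of the 69 genes, 7 (10.1%, beside 10.2% of all genes tested) are past the threshold. Of these, 6 are lower and 1 is higher in Nsd2ΔIE, where 2.2% of all genes are lower and 8.04% higher.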

How the data were processed

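RNA was extracted from colon with TRIzol. The authors deposited whole-number counts of reads per gene symbol and FPKM values for each library, and the submitters' processing notes name fastp, HISAT2, HTSeq, R 3.2.0 and build mm10. The annotation, strand setting and handling of reads shared between paralogs were not given in the sources used here. For 17863 genes with reads in every library, deposited counts and FPKM implied a whole-number gene length to within 0.0638 bases. No pair of libraries agreed within sampling noise (chi-square over degrees of freedom at least 35.5), and whether replicates were separate animals is not stated, so p-values measure the spread between these samples.

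Counts were fitted in all 6 libraries with edgeR 4.0.16 (R 4.3.3): TMM factors (0.924 to 1.08), filterByExpr, robust quasi-likelihood F test, two-sided, Benjamini-Hochberg over 16347 genes. Each SE was derived as the absolute log2 fold change over sqrt(F). Profiles used log2 CPM with a prior count of 2. Precision was limited by the spread between libraries (common dispersion 0.0967) rather than depth.

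Members, lists and alternatives were chosen with earlier results of these data known. Named were all members, list genes past the study's threshold (up to 6 a list, otherwise the largest rise and fall), and the 5 genes nearest in profile to the members' mean and to Muc2. Nsd2, Xist and the Y-linked genes were named as checks on the labels. Muc5ac, Tgm3, Mptx1, Reg4, Dmbt1, Atoh1, Rab27a, Rab27b and Pnlip were named outside this rule, after their values were seen. Alternatives were other scalings, filters and covariates, a replicate block, leaving out each library, DESeq2 1.42.0, limma 3.58.1 (voom, and log2 FPKM with a pseudocount of 1 or 0.1) and, added after seeing the data, Hoxb13 as a covariate. Gene positions came from RefSeq GRCm38.p6 and GENCODE M21, matched by symbol for all 10 members.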

Additional observations from a re-analysis of the deposited data

How the results depend on the processing

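The number of members with an adjusted p under 0.05 was 0 in 18 of 19 alternatives and 1 with DESeq2 (Sytl2). The number past the study's threshold, 1, became 0 per epithelial marker count, 3 with the distal position covariate and 3 with Hoxb13 as a covariate (in both, Sytl2, Clca1 and Fcgbp), while the share of all genes past it went from 10.2% to 10.5%, 15.4% and 16% in these fits. That number ranged from 1 to 2 without 1 library, where 4.9% to 14.8% of all genes passed. Likeness between libraries of the same replicate number was uneven, with correlations of deviations of 0.501, 0.643 and -0.166 for replicates 1, 2 and 3. Of 6 libraries, 4 were closest to their own number, and the labels state no pairing. The replicate block gave 3 members and 12.6% of all genes past the threshold. The median log2 fold change was 0.093 per epithelial marker count, -0.021 with log2(FPKM + 1) and from -0.35 to -0.075 without 1 library. Members without overlap, 1 beside 18.7% of all genes tested, became 0 per epithelial marker count, 2 with no filter on low counts and from 1 to 4 without 1 library. With fewer libraries in a group any gene separates more easily, and no share of all genes is given for these fits. Library totals alone moved the median of all genes by 0.127, and epithelial scaling by 0.271. The causes were not tested.

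Signs turned in 28 of 190 fits of single members, all among Muc2, Zg16, Tff3, Agr2, Spdef and Foxa3. Relative to the median of all genes 23 turned. Under the 4 other scalings, each of which scales all genes of a library together, 3 of 40 turned, against 6 before. The 3 were Muc2 per epithelial marker count, and Tff3 there and with library totals. With library totals alone Muc2 was 0.018 and Tff3 0.080, with upper-quartile factors Tff3 was 0.037, and per epithelial marker count Muc2 was 0.29, Tff3 0.15 and Foxa3 0.033. With log2(FPKM + 1) and log2(FPKM + 0.1) Muc2 was 0.10 in both and Tff3 0.059 in both, and limma-voom gave 0.28 for Muc2. The distal position covariate gave 0.093 for Tff3, -0.024 for Agr2 and -0.068 for Spdef, the Hoxb13 covariate 0.019 for Tff3, and no filter -0.0076 for Agr2. Without 1 library the ranges were -0.41 to 0.55 for Muc2, -0.039 to 0.53 for Zg16, -0.43 to 0.21 for Tff3, -0.24 to 0.29 for Agr2 and -0.16 to 0.31 for Spdef. Sytl2, Clca1, Fcgbp and Spink4 stayed below 0 in all 19.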

Other observations

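Other epithelial lineages beside the goblet cells were described by their marker lists. All 9 tested tuft cell markers (of 10 listed) had fitted rises in Nsd2ΔIE, 4 of them past the study's threshold and 0 with an adjusted p under 0.05, with a median log2 fold change of 0.52. Their summed level was 85.4 to 88.4 CPM in Nsd2fl/fl and 102.4 to 133.9 CPM in Nsd2ΔIE, without overlap. Among the 10 enteroendocrine markers the median was 0.06 and 1 passed the threshold. Among the 9 tested stem and proliferating markers the median was 0.02 and 0 passed. For the 12 colonocyte markers the median was -0.31 and 2 were lower past the threshold, with summed levels of 9341 to 24101 CPM in Nsd2fl/fl and 11609 to 18873 CPM in Nsd2ΔIE. Of other layers of the tissue, all 10 enteric nervous system markers were higher past the threshold in Nsd2ΔIE (median 1.00), as were 4 of the 7 tested adipocyte markers (median 2.43), where 8.04% of all genes tested were.

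Outside these lineages, the 8 fibroblast markers had a median of 0.23 and 3 higher genes, the 8 endothelium markers 0.13 and 0, the 8 macrophage markers 0.15 and 0, the 9 tested T cell markers 0.43 and 1 higher, and the 8 tested B and plasma cell markers -0.75 and 1 lower. The 16 endoplasmic reticulum genes all had fitted falls, 3 of them past the threshold, with a median of -0.47. Of 8 liver and pancreas genes, 3 were tested and 1 was lower past the threshold, and Pnlip, the pancreatic lipase, had at most 1 count in a library. Beside all these lists, 2.2% of all genes tested were lower and 8.04% higher past the threshold.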
